A study of Mus musculus with 6 samples.

Results

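The genes described here are 7 aquaporins (Aqp1, Aqp2, Aqp3, Aqp4, Aqp6, Aqp7 and Aqp11) and the vasopressin V2 receptor gene Avpr2. They were taken by gene symbol, 8 genes of the 54838 gene identifiers in the count tables. RNA was sequenced from glomeruli, the capillary tufts that filter plasma in the kidney, isolated from mice 3 weeks old. The 3 libraries labelled KO (mice 146, 147 and 148) have the genotype bPIX -/- and come from mice described as lacking bPIX in podocytes, the epithelial cells on the outer face of the glomerular capillaries. The 3 libraries labelled CTRL (157, 162 and 163) have the genotype wild type, and each library is 1 mouse. The sources used here name neither the Cre driver, the strain and the sex nor how the glomeruli were isolated. bPIX is the product of Arhgef7, a protein that switches on the GTPases Rac1 and Cdc42.

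The deposited files carry the opposite group in their names for all 6 libraries. Groups follow the sample labels, and under the file names every difference below would have the opposite sign. Arhgef7 was counted 7837, 3712 and 3903 times in KO 146, 147 and 148, and 3956, 3582 and 3915 times in CTRL 157, 162 and 163, a log2 fold change of 0.17 (SE 0.17, edgeR adjusted p = 0.544). By the design text the loss is in podocytes alone, while the count covers every cell of the preparation and the whole gene, so it does not check the labels. Gene counts ranged from 39841396 to 51917945 per library. Glomerular markers were higher in the libraries labelled KO: the mean of 12 podocyte markers was 8.55, 7.27 and 6.69 on the log2 scale of CPM (read counts scaled to a common library size) in KO 146, 147 and 148, against 5.44 to 5.75 in the libraries labelled CTRL. Tubule RNA was abundant in these glomerular preparations, with 22 proximal tubule markers summing to between 13140 and 21770 CPM in the libraries labelled KO and between 25530 and 28700 CPM in those labelled CTRL. Xist was at no more than 0.0965 CPM and the Y-linked gene Ddx3y at 55.2 CPM or more in every library.

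Aquaporins are membrane channels that let water, and in some members glycerol, cross the cell along its gradient. In the kidney they belong mainly to the tubule rather than the filter: Aqp1 carries water in the proximal tubule and descending thin limb, while Aqp2, Aqp3 and Aqp4 carry it through the principal cells of the collecting duct. There the V2 receptor, when it binds vasopressin, raises cyclic AMP, which moves Aqp2 vesicles to the apical membrane and raises Aqp2 transcription. In bulk RNA of a preparation that holds glomeruli and tubule, fewer cells of a type and less RNA per cell cannot be told apart.

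All 8 genes have a position in the GENCODE M21 annotation on GRCm38. Aqp2 (ENSMUSG00000023013, chromosome 15, 99579055 to 99584547, plus strand) and Aqp6 (ENSMUSG00000043144, chromosome 15, 99601400 to 99605477, plus strand) lie 16852 bases apart. Aqp3 (ENSMUSG00000028435, chromosome 4, 41092722 to 41098183, minus strand) and Aqp7 (ENSMUSG00000028427, chromosome 4, 41033074 to 41048139, minus strand) lie 44582 bases apart. Aqp1 (ENSMUSG00000004655) spans 55336432 to 55348555 on the plus strand of chromosome 6, and Aqp11 (ENSMUSG00000042797) spans 97724006 to 97738289 on the minus strand of chromosome 7. Avpr2 (ENSMUSG00000031390) spans 73892102 to 73895502 on the plus strand of chromosome X. No exon of the 7 aquaporins is shared with another gene. Of the 2886 exon bases of Avpr2, 2347 are also exon of Arhgap4 on the opposite strand, and a counter that ignores strand sets such reads aside as ambiguous.

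RefSeq promoter windows (GRCm38.p6) were matched by symbol for 7 of the 8 genes. The 250 bases upstream of the start are shown for the apical channel Aqp2 and the basolateral channel Aqp3, the pair of principal cell channels whose CPM did not overlap between the groups, and for Aqp6, which lies beside Aqp2 but is used by another cell type. Capitals mark every match, on either strand, to 3 motifs. The first is TGACG, the core of the cyclic AMP response element (CRE). The second is TATAA, the start of the promoter box that positions RNA polymerase. The last is AGATAA, a site for transcription factors of the zinc finger family that includes Gata3.
Aqp2, chr15:99578806-99579055, plus strand: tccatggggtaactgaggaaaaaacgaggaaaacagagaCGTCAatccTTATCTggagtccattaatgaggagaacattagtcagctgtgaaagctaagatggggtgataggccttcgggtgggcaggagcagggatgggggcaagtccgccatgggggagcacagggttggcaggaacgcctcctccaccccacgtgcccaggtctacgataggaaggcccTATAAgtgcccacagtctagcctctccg
Aqp3, chr4:41098184-41098433, minus strand: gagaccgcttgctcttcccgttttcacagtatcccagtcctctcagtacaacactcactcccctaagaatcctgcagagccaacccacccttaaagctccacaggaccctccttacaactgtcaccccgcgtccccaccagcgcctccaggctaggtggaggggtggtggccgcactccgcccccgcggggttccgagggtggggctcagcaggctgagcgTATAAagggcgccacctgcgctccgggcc
Aqp6, chr15:99600950-99601199, plus strand: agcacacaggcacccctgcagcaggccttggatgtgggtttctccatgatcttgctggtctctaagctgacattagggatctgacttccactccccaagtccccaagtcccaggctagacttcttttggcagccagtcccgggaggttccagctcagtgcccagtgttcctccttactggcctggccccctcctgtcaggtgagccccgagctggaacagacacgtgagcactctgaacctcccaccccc

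The Aqp2 window held a CRE core that starts at position -211 from the start, the zinc finger site at -202, both on the opposite strand, and TATAA at -28. The Aqp3 window held TATAA at -29 and no other match, and the Aqp6 window held none of the 3. Of 32851 promoter windows of the same length, 17.8% held the CRE core, 22.8% TATAA and 9.99% the zinc finger site on either strand. The 3 motifs do not overlap in the windows shown, and a match is only a run of letters.

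Levels of different genes were compared as CPM, scaled by TMM library size, per kb of exon. Aqp2 and Aqp1 headed the order, with 174 ± 27.8 and 158 ± 22.4 CPM per kb in the libraries labelled KO and 249 ± 34.4 and 221 ± 7.83 in those labelled CTRL (SD, n = 3 each). The pair overlapped in both groups. Next came Aqp3 at 62.0 ± 4.04 CPM per kb in the libraries labelled KO and 96.0 ± 10.2 in those labelled CTRL, and then Aqp6 at 29.3 ± 7.01 and 41.4 ± 0.573 in the same order of groups. Aqp3 lay below Aqp1 and above Aqp6 in every library of each group.
Aqp11, Aqp7 and Aqp4 formed a low tier, with means of 4.70, 3.62 and 2.39 CPM per kb in the libraries labelled KO and 5.85, 4.71 and 3.22 in those labelled CTRL. Aqp11 and Aqp7 overlapped in the libraries labelled KO, and Aqp7 and Aqp4 in those labelled CTRL. Avpr2 was last at 0.0387 CPM per kb in the libraries labelled KO and 0.0529 in those labelled CTRL. Its length includes the exon bases shared with Arhgap4, whose reads may have been set aside, so its level may be understated. The order of the 8 genes was the same in both groups and with the longest transcript as the length.

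**Figure D1:**
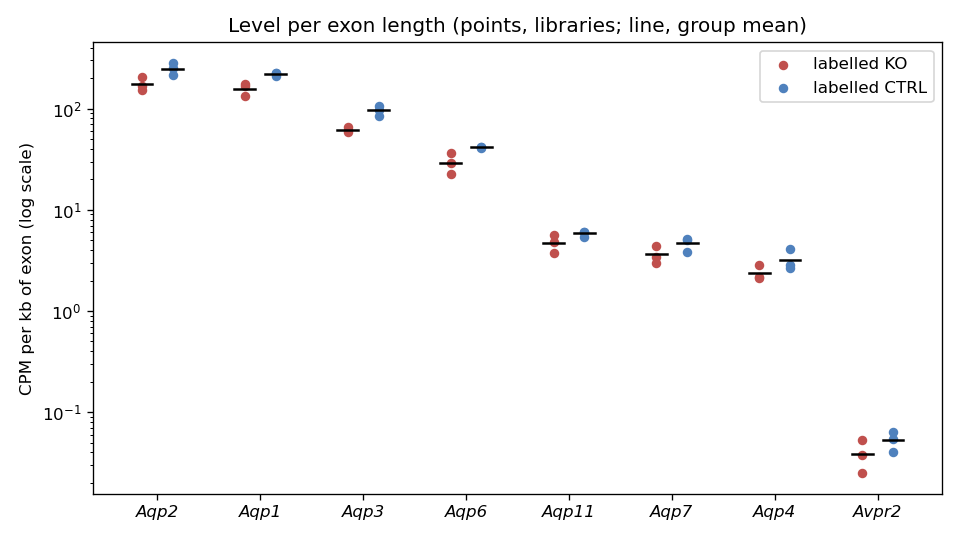
Level of each gene in CPM per kb of exon on a log axis, with the 3 libraries labelled KO to the left of the 3 labelled CTRL as points and the group mean as a line. Aqp2 and Aqp1 stand highest, with group means of 174 and 158 in KO and 249 and 221 in CTRL, and Avpr2 lies far below the other genes at 0.0387 and 0.0529. Reads from the Avpr2 exon bases shared with Arhgap4 may have been set aside.

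The comparison of the libraries labelled KO with those labelled CTRL asked whether loss of bPIX in podocytes went with a change in these transcripts. All 7 aquaporins had a lower mean in the libraries labelled KO, with log2 fold changes from -0.63 for Aqp3 to -0.32 for Aqp11 and a median of -0.48. None passed the test (edgeR quasi-likelihood test, Benjamini-Hochberg adjusted p below 0.05 over 17086 genes): 0 of 7 were called, where 1.01% of all tested genes were called and 0.421% were called lower. An unadjusted p below 0.05 with a lower value was reached by 4 of 7 (Aqp1, Aqp2, Aqp3 and Aqp6), against 11.8% of all tested genes. With library totals as the scale, Aqp2 did not reach it and 3 of 7 did, where 4966 of 17086 genes did in either direction. Aqp1, Aqp2, Aqp3 and Aqp6 did not overlap between the groups in TMM-scaled CPM. Of all tested genes, 41.5% did not overlap and 19.6% did so with lower values in KO. A negative fold change was found in 50.7% of all tested genes, whose median was -0.006.

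Calls depended on the tool and on single libraries. DESeq2 called 3 of 7 lower, Aqp1, Aqp2 and Aqp3, where it called 16.4% of genes and 5.06% lower. Without KO 146, edgeR called 4 lower (Aqp1, Aqp2, Aqp3 and Aqp6; 17.2% of genes called, 6.62% lower), and without KO 148 it called 2, Aqp1 and Aqp3 (18.3% called, 5.4% lower). Without the filter on low counts it called Aqp3 alone (2.72% called, 1.31% lower). Without KO 147 or any 1 of the CTRL libraries, edgeR called 0 of the 7.

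**Figure D2:**
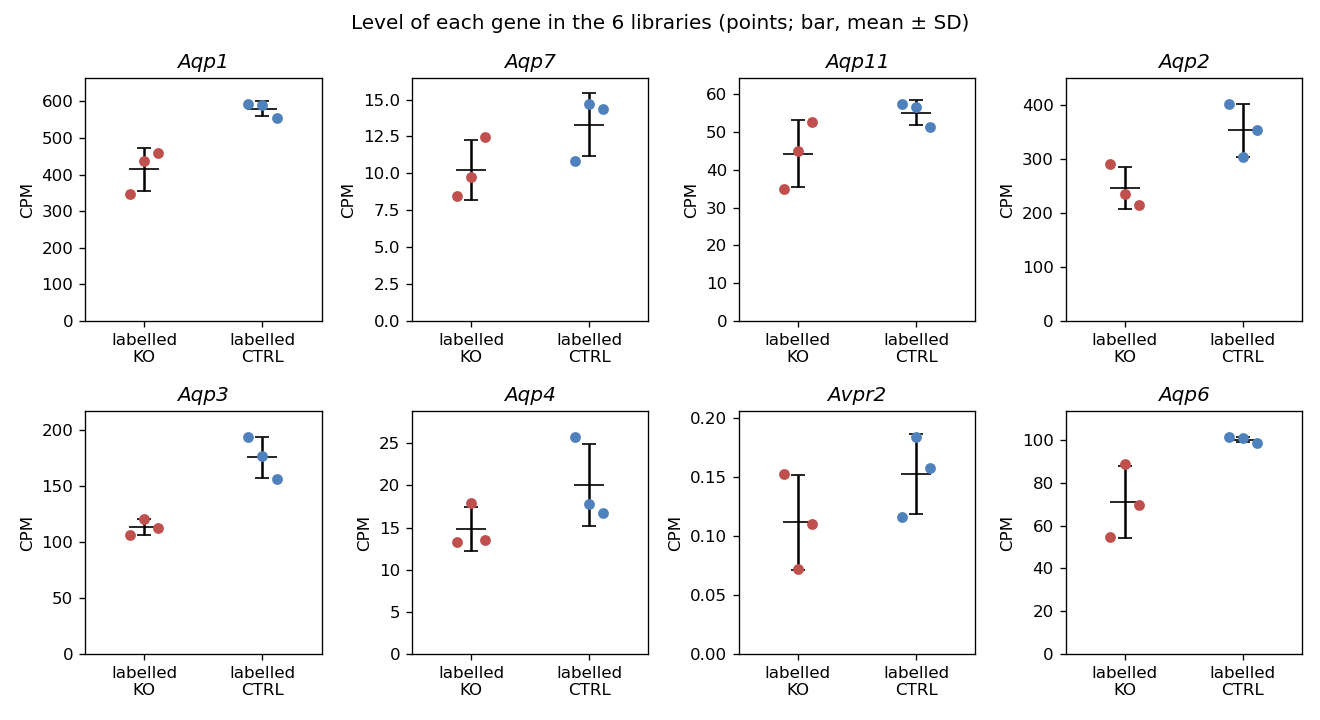
Level of each gene in CPM in the 6 libraries, labelled KO on the left and labelled CTRL on the right, with each library as a point (lowest animal number leftmost) and the mean ± SD as a bar; axes start at 0. On this TMM scale the groups do not overlap for Aqp1, Aqp2, Aqp3 and Aqp6, and Aqp2 alone of these has its highest KO value, 291 CPM, in KO 146.

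Among the proximal tubule channels, Aqp1, which lets water follow reabsorbed salt and is also abundant in red cells, was at 348, 438 and 459 CPM in KO 146, 147 and 148, and at 592, 591 and 556 CPM in CTRL 157, 162 and 163. The highest KO library lay below the lowest CTRL library, and KO 146 was lowest of all. The mean was 415 ± 58.8 CPM in the libraries labelled KO and 580 ± 20.6 in those labelled CTRL (SD, n = 3 each), so that the KO mean was 71.6% of the CTRL mean. The log2 fold change was -0.48 (SE 0.13, 95% interval -0.80 to -0.17, edgeR adjusted p = 0.082). Red cell markers overlapped between the groups: the summed level of 7 genes was 576, 411 and 291 CPM in KO 146, 147 and 148, and 673, 739 and 122 CPM in CTRL 157, 162 and 163. Their part in the Aqp1 values was not tested.

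Aqp7, which passes glycerol as well as water and sits in the brush border of the straight proximal tubule, was much scarcer. It was at 8.48, 9.77 and 12.5 CPM in KO 146, 147 and 148, and at 10.9, 14.7 and 14.4 CPM in CTRL 157, 162 and 163. The groups overlapped, with KO 148 above CTRL 157. Its log2 fold change was -0.38 (SE 0.19, 95% interval -0.82 to 0.07, edgeR adjusted p = 0.228). Adipocytes are the other well-known site of Aqp7, and their markers were near 0, with 18 reads or fewer in any library over 5 genes and Adipoq at 0 in every library labelled KO.

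Aqp11, an aquaporin of the endoplasmic reticulum whose loss causes polycystic kidneys in mice, was at 35.0, 45.1 and 52.7 CPM in KO 146, 147 and 148, and at 57.3, 56.7 and 51.2 CPM in CTRL 157, 162 and 163. KO 148 lay above CTRL 163, so the groups overlapped. The log2 fold change was -0.32 (SE 0.15, 95% interval -0.68 to 0.04, edgeR adjusted p = 0.214), and -0.18 without KO 146.

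Aqp2 is the channel that vasopressin places in the apical membrane of principal cells. It was at 291, 235 and 214 CPM in KO 146, 147 and 148, and at 402, 304 and 354 CPM in CTRL 157, 162 and 163. The groups did not overlap, and KO 146 was the KO library closest to the CTRL range. The mean was 247 ± 39.5 CPM in the libraries labelled KO and 353 ± 48.8 in those labelled CTRL (SD, n = 3 each), and the log2 fold change was -0.52 (SE 0.16, 95% interval -0.89 to -0.14, edgeR adjusted p = 0.0956). Before scaling, the counts overlapped, with 17174, 9759 and 9749 reads in KO 146, 147 and 148 and 17302, 11595 and 15692 in CTRL 157, 162 and 163. Scaled by library totals alone, KO 146 still lay above CTRL 162, so the separation rests on the TMM factors, 1.138 for KO 146 and 0.9565 for CTRL 162. With library totals the log2 fold change was -0.367 (SE 0.186, edgeR unadjusted p = 0.09193, adjusted p = 0.2345).

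Aqp3, a basolateral channel through which water and glycerol leave the principal cell, had the smallest p of the 7 tested. It was at 106, 121 and 113 CPM in KO 146, 147 and 148, and at 193, 177 and 156 CPM in CTRL 157, 162 and 163. All 3 KO libraries lay well below the lowest CTRL library and close together. The KO mean of 113 ± 7.39 CPM was 64.6% of the CTRL mean of 176 ± 18.6 (SD, n = 3 each), with a log2 fold change of -0.63 (SE 0.11, 95% interval -0.89 to -0.37). The edgeR adjusted p was 0.0594, just above the threshold, and ran from 0.00586 to 0.511 over the edgeR alternatives. The DESeq2 adjusted p was 1.07e-04. Urothelium also uses Aqp3, and 5 urothelial markers summed to between 1.19 and 2.88 CPM in the libraries labelled KO and between 1.88 and 4.78 CPM in those labelled CTRL. Their part in the Aqp3 values was not tested.

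Aqp4, the other basolateral exit, was at 13.3, 17.9 and 13.5 CPM in KO 146, 147 and 148, and at 25.7, 17.8 and 16.7 CPM in CTRL 157, 162 and 163. KO 147 lay above CTRL 162 and CTRL 163, so the groups overlapped and CTRL 157 alone stood above every KO library. The log2 fold change was -0.43 (SE 0.20, 95% interval -0.91 to 0.05, edgeR adjusted p = 0.207), and -0.22 without CTRL 157.

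Avpr2, the receptor, was barely counted: 9, 3 and 5 reads in KO 146, 147 and 148, and 5, 7 and 7 reads in CTRL 157, 162 and 163. It did not pass the filter on low counts and was not tested in the fit. Without that filter its log2 fold change was -0.40 (SE 0.57, edgeR adjusted p = 0.716), so a difference was not detectable with so few counted reads. Arhgap4, a GTPase-activating protein gene that shares most of the Avpr2 exon bases, was counted 435, 298 and 344 times in KO 146, 147 and 148 and 333, 277 and 305 times in CTRL 157, 162 and 163. The neighbouring gene L1cam, a cell adhesion molecule whose span also covers Avpr2, shares no exon base with it. L1cam was at 33.0 ± 6.54 CPM in the libraries labelled KO and 38.7 ± 0.216 in those labelled CTRL (SD, n = 3 each). The number of reads set aside in the region is not given per gene.

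Aqp6 lies next to Aqp2 in the genome but is used by the intercalated cells, where it stays in intracellular vesicles and passes anions. It was at 54.7, 88.6 and 69.7 CPM in KO 146, 147 and 148, and at 101, 101 and 98.6 CPM in CTRL 157, 162 and 163. The CTRL libraries agreed closely, and every KO library lay below them with a wide spread. The mean was 71.0 ± 17.0 CPM in the libraries labelled KO and 100.2 ± 1.39 in those labelled CTRL (SD, n = 3 each), and the log2 fold change was -0.50 (SE 0.17, 95% interval -0.90 to -0.10, edgeR adjusted p = 0.115).

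**Figure D3:**
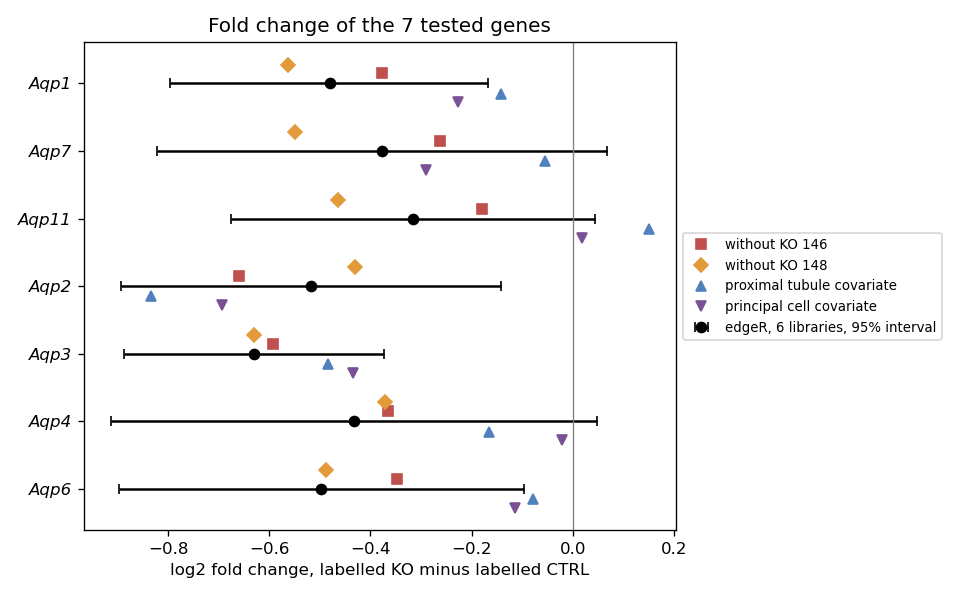
Log2 fold change of the 7 tested aquaporins, labelled KO minus labelled CTRL, with the edgeR estimate over 6 libraries and its 95% interval in black, and the estimate without KO 146, without KO 148 or with a marker list as covariate as coloured symbols. Aqp3 stays between -0.43 and -0.63 under these settings, while Aqp11 lies on the other side of 0 with either covariate, at 0.15 and 0.02.

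Other aquaporins were close to absent. Aqp8 had 20, 26 and 27 reads in KO 146, 147 and 148 and 29, 17 and 35 in CTRL 157, 162 and 163, with a log2 fold change of -0.32 (SE 0.34, edgeR adjusted p = 0.565). Aqp9, a glycerol channel of liver, had 22 reads over all 6 libraries, Aqp5, a channel of gland and airway epithelium, had 20, and the lens channel gene Mip had 1. Aqp12 had 0 reads in every library, where a count of 0 allows up to 3 reads per library, counting error only.

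Tubule markers were lower in the same libraries as the aquaporins. The mean of 22 proximal tubule markers was 8.45, 9.01 and 9.16 log2 CPM in KO 146, 147 and 148, against 9.44 to 9.57 in the libraries labelled CTRL. That of 8 principal cell markers was 4.25, 4.83 and 4.71 in the same KO libraries, against 4.91 to 5.21 in CTRL, and that of 11 intercalated cell markers was 4.79, 5.43 and 5.54 in KO, against 5.68 to 5.91 in CTRL. In each list KO 146 was lowest, and the groups did not overlap on this TMM scale. For principal cells the gap between KO 147 and CTRL 163 was small and depends on the scaling, with TMM factors of 1.03 and 0.959 in these libraries. Of these lists, 22 of 22, 8 of 8 and 11 of 11 members had a negative log2 fold change, with medians of -0.54, -0.46 and -0.51, and edgeR called 1, 0 and 0 of them lower, where it called 0.421% of all genes lower. Other fits called more: DESeq2 called 10, 0 and 1 lower (5.06% of all genes), edgeR without KO 146 called 12, 4 and 5 (6.62%), and edgeR without KO 148 called 6, 1 and 3 (5.4%). Without KO 146 the medians were -0.35, -0.31 and -0.32. With library totals as the scale, 7 of the 8 principal cell markers were negative.
The 1 call was Slc7a13, an amino acid transporter of the straight proximal tubule, at 193 ± 22.8 CPM in the libraries labelled KO and 380 ± 29.4 in those labelled CTRL (SD, n = 3 each; log2 fold change -0.97, edgeR adjusted p = 0.0332). Without KO 147 or any 1 of the CTRL libraries, edgeR called 0 of the 22. In principal cells, the sodium channel subunit Scnn1g stood at -0.44, the glucocorticoid-inactivating enzyme Hsd11b2 at -0.54 and the Na,K-ATPase modulator Fxyd4 at -0.46, with edgeR adjusted p values from 0.109 to 0.134. In intercalated cells, the anion exchangers Slc26a4 and Slc4a9 and the oxoglutarate receptor Oxgr1 stood at -0.63, -0.48 and -0.57 (edgeR adjusted p from 0.107 to 0.122).

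**Figure D4:**
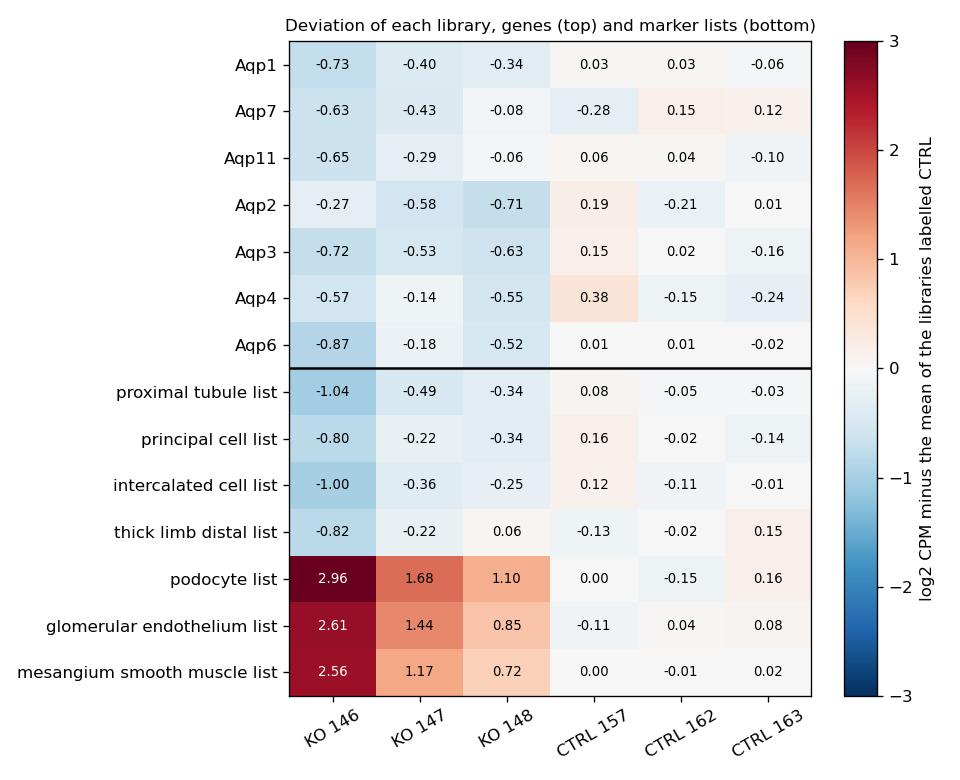
Each library's log2 CPM minus the mean of the 3 libraries labelled CTRL, for the 7 tested aquaporins (top) and for the mean of 7 marker lists (bottom), with KO libraries in the left columns. In KO 146 the tubule lists are at -1.04 to -0.80 and the glomerular lists at 2.56 to 2.96, while Aqp2 is at -0.27.

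Each gene was then set against the marker list of its own cell type, as its log2 CPM minus the list mean in the same library, and an exact permutation test (two-sided) compared the groups; with 3 libraries against 3 its smallest possible p is 0.1. For Aqp3 the value was 2.49, 2.09 and 2.11 in KO 146, 147 and 148 and 2.38, 2.44 and 2.38 in CTRL 157, 162 and 163. The groups overlapped because of KO 146, and the difference, KO minus CTRL, was -0.17 (exact permutation p = 0.4). For Aqp2 it was 3.94, 3.05 and 3.04 in KO 146, 147 and 148 and 3.44, 3.22 and 3.56 in CTRL 157, 162 and 163, a difference of -0.06 (exact permutation p = 0.8). KO 146 thus had the most Aqp2 per principal cell marker of the 6 libraries and the other KO libraries the least.
Aqp11 alone did not overlap between the groups on this scale. It was at -3.32, -3.51 and -3.44 relative to proximal tubule markers in KO 146, 147 and 148 and at -3.73, -3.62 and -3.78 in CTRL 157, 162 and 163, a difference of 0.29 with higher values in KO (exact permutation p = 0.1, the smallest possible). For Aqp1 and Aqp7 the differences were 0.13 and 0.24 (exact permutation p = 0.2 and 0.4). Without KO 146 the Aqp1 difference was 0.04, and without CTRL 157 the Aqp7 difference was 0.06. For Aqp4, Avpr2 and Aqp6 they were 0.04, 0.10 and 0.01 (exact permutation p = 0.9, 1 and 0.9), where Avpr2 rests on 3 to 9 reads per library. With so few libraries none of these 8 tests could reach 0.05, so their p values describe only the order of the libraries.

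**Figure D5:**
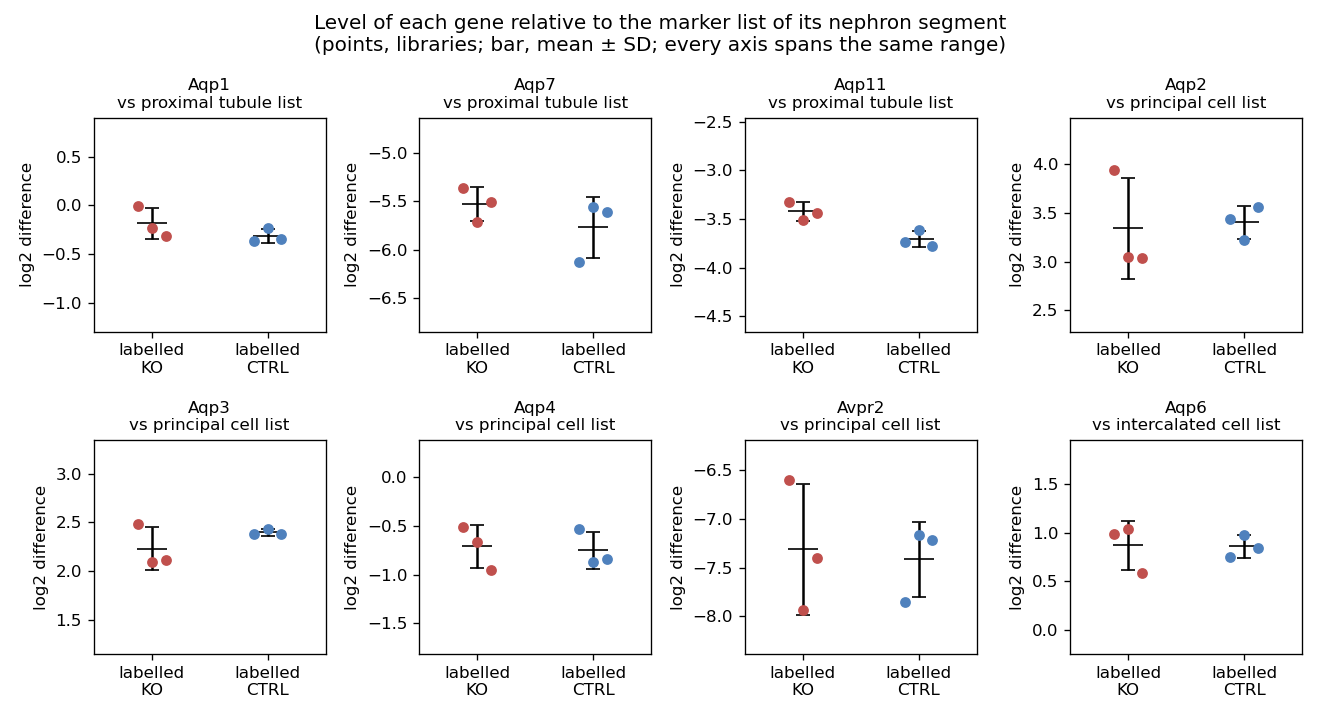
Log2 CPM of each gene minus the mean log2 CPM of the marker list named above it, with the 3 libraries labelled KO left of the 3 labelled CTRL as points and the mean ± SD as a bar; every axis spans the same range. The groups overlap for every gene but Aqp11, and the highest Aqp2 value, 3.94, belongs to KO 146.

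With the proximal tubule list mean as a covariate in edgeR, the log2 fold changes were -0.14 for Aqp1, -0.05 for Aqp7 and 0.15 for Aqp11, and -0.83 and -0.48 for Aqp2 and Aqp3 (edgeR adjusted p from 0.147 to 0.943 for these 5). With the principal cell list mean they were -0.69 for Aqp2, -0.43 for Aqp3 and -0.02 for Aqp4 (edgeR adjusted p from 0.511 to 0.994). The edgeR fit called 0 of 7 with either covariate. The list means differ between the groups without overlap on the TMM scale, so the covariate and the group are partly the same contrast.

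Within the principal cell channels, log2 Aqp2 minus log2 Aqp3 was 1.45, 0.96 and 0.92 in KO 146, 147 and 148 and 1.05, 0.78 and 1.18 in CTRL 157, 162 and 163. The mean was 1.11 ± 0.30 in the libraries labelled KO and 1.01 ± 0.20 in those labelled CTRL (SD, n = 3 each). KO 146 lay above the other 5 libraries, and the groups overlapped. The difference of Aqp2 from Aqp6, the neighbouring gene of another cell type, was 2.41, 1.41 and 1.62 in KO 146, 147 and 148 and 1.99, 1.59 and 1.84 in CTRL 157, 162 and 163.

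Of 28 genes of vasopressin signalling and Aqp2 trafficking, 17 stood above and 11 below 0 in log2 fold change; the median was 0.16 beside -0.006 for all tested genes, and edgeR called 0. An unadjusted p below 0.05 was reached by 8 with higher and 2 with lower values, beside 17.5% and 11.8% of all tested genes. The 3 with the smallest p were Ptger4, a prostaglandin E2 receptor (1.79), Sgk1, the kinase that keeps the epithelial sodium channel at the membrane (1.47), and Prkar2b, a regulatory subunit of protein kinase A (0.85), with edgeR adjusted p values from 0.0753 to 0.077. Sgk1 was at 305, 166 and 132 CPM in KO 146, 147 and 148 and at 70.5, 59.9 and 87.0 CPM in CTRL 157, 162 and 163. KO 146 was highest for all 3, as it was for podocyte, endothelial and mesangial markers, whose part in these values was not tested. DESeq2 called 5 of the 28 higher and 1 lower, where it called 11.3% of all genes higher and 5.06% lower. Without KO 146 edgeR called 5 higher and 2 lower, where 10.5% and 6.62% of all genes were called, and the median was 0.09. Without KO 148 it called 7 higher and 1 lower, where 12.9% and 5.4% were called, and the median was 0.27. With library totals as the scale, 23 of the 28 were positive.

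Of 9 genes of the osmotic response, 2 were positive and 7 negative with a median of -0.02. Calls among them numbered 0 in edgeR, beside 1.01% of all genes, and 0 in DESeq2, beside 16.4%. Before adjustment, 0 of the 9 had p below 0.05 in edgeR, beside 5011 of 17086 tested genes in either direction. The osmotic transcription factor Nfat5 stood at 0.46, the chaperone Hspa4l at -0.23 and the amino acid transporter Slc38a2 at 0.28 (edgeR adjusted p from 0.18 to 0.29). Markers of the thin limb, where Aqp1 is also found, had 2 of 6 members positive and a median of -0.07. The edgeR fit called 0 of the 6 higher (0.591% of all genes), and 1 had an unadjusted p below 0.05 with higher values (17.5%). DESeq2 and edgeR without KO 148 each called 1 of the 6 higher, where 11.3% and 12.9% of all genes were called higher. With library totals as the scale, 6 of the 9 osmotic and 5 of the 6 thin limb genes were positive. The urea transporter gene Slc14a2, which is in both lists, was at 13.7 ± 1.77 CPM in the libraries labelled KO and 18.5 ± 8.49 in those labelled CTRL (SD, n = 3 each).

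Of 9 markers of the thick limb and distal tubule, all stood below 0, at a median log2 fold change of -0.28. The edgeR fit called 0 of them lower, where it called 0.421% of all genes lower. An unadjusted p below 0.05 was reached by 0, where 11.8% of all tested genes reached it with lower values. Without KO 146 the median was -0.06 and 2 of the 9 were positive, and without KO 148 the median was -0.52. In the edgeR fit without KO 148, 5 of the 9 had an unadjusted p below 0.05, all with lower values, where 6339 of 17510 tested genes did in either direction. Either leaving out CTRL 162 or scaling by library totals made 1 of the 9 positive, and leaving out CTRL 163 gave a median of -0.19. Uromodulin (Umod), the main urinary protein made there, was at 3143 ± 1000 CPM in the libraries labelled KO and 3720 ± 639 in those labelled CTRL (SD, n = 3 each). All 12 podocyte, 11 glomerular endothelial and 10 mesangial markers stood above 0, at medians of 2.10, 1.75 and 1.88. The edgeR fit called 0 of them higher (0.591% of all genes). Every one had an unadjusted edgeR p below 0.05 with higher values, where 17.5% of all tested genes did. DESeq2 called 12, 11 and 7 of them higher (11.3% of all genes). Leaving out KO 146, edgeR called 12, 10 and 9 higher (10.5%), and leaving out KO 148 it called 12, 11 and 8 (12.9%). Without KO 146 the medians were 1.34, 1.13 and 0.83. Podxl, which encodes the sialoprotein coat of the podocyte, was at 1950 ± 1351 CPM in the libraries labelled KO and 455 ± 33.5 in those labelled CTRL (log2 fold change 2.10, SE 0.47, edgeR adjusted p = 0.0755). KO 146 was highest in podocyte markers and lowest in proximal tubule, principal cell and intercalated cell markers, and its part in the aquaporin values was not tested beyond the fits without it.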

How the data were processed

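The members and gene lists were chosen with earlier results of these data known. Each library has 1 deposited file of whole-number read counts by gene identifier, to which the authors applied no scaling as far as the values show. The submitters' processing notes list HTSeq 0.11.1, STAR 2.6.0, fastp 0.19.5 and DESeq2, and the build GRCh37, a human assembly, although the identifiers are mouse. The sources used here do not give the strand setting. The 5 closing lines of each file, which name no gene, were left out; reads aligned to several places were 22.5% to 29.6% of all records, reads in no feature 2.57% to 3.41% and ambiguous reads 1.55% to 1.79%. Names, positions and exon lengths came from GENCODE M21 (54809 of 54838 identifiers).

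Counts were tested in R 4.3.3 with edgeR 4.0.16 (TMM, filterByExpr with a minimum count of 10, robust quasi-likelihood F test, no covariate), after a test on simulated data. The SE was taken as the size of the fold change divided by the root of its F value. List means used a prior count of 2. Alternatives were DESeq2 1.42.0, other scalings, no filter, no robust estimation, 2 covariates and each library left out. Replicate pairs within a group differed with a chi-square per degree of freedom of 14.3 or more, so all 6 libraries were kept. Genes named are the 8, the other aquaporins, genes overlapping the 8, Arhgef7, every called gene (up to 5) or else the 3 of smallest p in the signalling, osmotic and segment lists, and, of other lists, from the 2 of highest mean CPM; Adipoq, Xist and Ddx3y were chosen after their values were seen.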

Additional observations from a re-analysis of the deposited data

How the results depend on the processing

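The 7 tested aquaporins kept a negative log2 fold change, KO minus CTRL, under every alternative except that Aqp11 was at 0.15 with the proximal tubule covariate and 0.018 with the principal cell covariate. DESeq2 gave -0.49 for Aqp1, -0.52 for Aqp2 and -0.64 for Aqp3, and edgeR without the filter -0.63 for Aqp3, each past the threshold. With 1 library left out, the values ran from -0.56 to -0.38 for Aqp1, -0.66 to -0.42 for Aqp2, -0.71 to -0.56 for Aqp3, -0.69 to -0.35 for Aqp6, -0.55 to -0.26 for Aqp7, -0.47 to -0.18 for Aqp11 and -0.59 to -0.22 for Aqp4. Scaling by library totals gave a median of all genes of 0.13 in place of -0.006 and left all 7 negative, from -0.49 to -0.19. Calls over all genes were 173 in the fit reported, 960 without the filter, 2 with the principal cell covariate, 2871 with DESeq2, and between 2 and 3211 with 1 library left out (2974 without KO 146, 3211 without KO 148, and 2 to 10 without any 1 of the others). The differences from segment lists changed sign with 1 library left out for Aqp2 (-0.36 to 0.09), Aqp4 (-0.058 to 0.16), Avpr2 (-0.26 to 0.41) and Aqp6 (-0.072 to 0.16); they kept their sign for Aqp1 (0.04 to 0.19), Aqp7 (0.06 to 0.34), Aqp11 (0.24 to 0.33) and Aqp3 (-0.30 to -0.10).
No paired analysis was possible because the labels number each mouse once and share no number between the groups. The causes of these changes were not tested.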
